A study of Mus musculus with 18 samples.

Results

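Clustered zinc finger protein (Zfp) genes of mouse chromosomes 4 and 13 were followed in round spermatids (RS), the haploid germ cells that follow meiosis. The members were the genes whose symbol starts with Zfp and a digit, or with Rsl1, and whose start lies in the window of chromosome 4 or of chromosome 13 (GRCm38) that holds the cluster. The members found start from chr4:145510759 to chr4:147822986 and from chr13:62129886 to chr13:67813740. The rule gave 50 of the 54232 genes of the count table, 18 on chromosome 4 and 32 on chromosome 13. It used names and positions and no measured value.

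Most proteins of this kind carry a row of Cys2His2 zinc fingers, small folds held by a zinc ion between a pair of cysteines and a pair of histidines, and many carry a KRAB domain at the other end. The fingers read DNA, the KRAB domain recruits Trim28 (KAP1), and Trim28 brings histone methyltransferases and other silencing factors to the bound site. Genes of this family arose by tandem duplication, lie in dense clusters, differ between inbred mouse strains, and are known mainly as silencers of retroelements and, for some, of imprinted regions. Rsl1, named for regulating sex-limited liver genes, is a member of the chromosome 13 cluster.

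RNA-seq libraries were made from RS of mice 75 to 85 days old, 6 libraries for each genotype, namely WT, GRTH KO and GRTH KI. GRTH is the RNA helicase encoded by Ddx25. The KO mice lack GRTH. The KI mice carry the human GRTH gene with a missense mutation that leaves the helicase without its phosphorylated form. Both are described in the study as sterile with RS that do not elongate. The RS were taken from whole testes by sedimentation and not sorted, the strain is not given in the sources used here, and no source says that the 6 libraries came from separate mice, so p-values measure the spread between libraries. In bulk libraries, fewer cells that express a gene and less RNA per cell cannot be told apart.

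Counts assigned to genes summed to between 18766971 and 26776555 per library, and 3 counts, taken as the limit of detection, corresponded to 0.112 to 0.160 CPM, the unit used below for counts relative to library size. Ddx25 had 11433 to 14208 counts in WT, 1005 to 2074 in KO and 1 to 13 in 5 of the KI libraries. Reads were aligned to the mouse genome, so the KI counts do not give the level of a human GRTH transcript. The library labelled KI 4 had 1345 counts of Ddx25, inside the range of KO, and is therefore named by its label throughout. Its nearest library over the 39 members tested was KO 2, with a median absolute difference of 0.14 on the log2 scale. Transcripts of the round spermatid marker list, 6 genes that include Acrv1 and Izumo1, were above 3 counts in every library.

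The fingers are shown first because near-identical copies set how far each gene can be measured. The annotation gave a coding sequence for 48 of the members, and 47 of these encoded at least 1 Cys2His2 finger, found by the spacing of its cysteines and histidines, with a median of 12 and up to 30 in Zfp729b. Zfp367 encoded 1. Zfp640 is annotated as a pseudogene, and Zfp85os as a noncoding transcript that overlaps Zfp85 on the other strand. A finger and the linker after it fill 84 bases, and the first such repeat is printed for the gene that varied most between libraries, for the pair whose levels followed it most closely, and for the member that fell furthest in KO. The capitals mark the codons of the zinc-binding cysteines and histidines. Sequences were read 5′ to 3′ on the coding strand from GENCODE M21 transcripts (GRCm38).
Zfp990 (chr4:145537157-145537240, plus strand): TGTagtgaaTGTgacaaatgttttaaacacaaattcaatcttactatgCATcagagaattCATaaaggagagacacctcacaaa
Zfp534 (chr4:147675404-147675487, minus strand): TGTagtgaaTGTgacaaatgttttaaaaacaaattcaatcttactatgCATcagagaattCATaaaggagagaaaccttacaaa
Zfp984 (chr4:147755592-147755675, minus strand): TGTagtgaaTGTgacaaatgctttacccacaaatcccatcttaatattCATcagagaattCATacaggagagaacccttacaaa
Zfp998 (chr13:66432111-66432194, minus strand): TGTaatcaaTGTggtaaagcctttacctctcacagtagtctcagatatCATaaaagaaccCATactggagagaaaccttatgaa

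The repeat of Zfp534 was identical to that of Zfp990 at 96.4% of its bases, that of Zfp984 at 86.9% and that of Zfp998 at 59.5%. Among the other 17 chromosome 4 members with such a repeat the identity to Zfp990 ranged from 60.7% to 96.4% (median 86.9%), and among the 28 of chromosome 13 from 50% to 66.7% (median 60.1%). The likeness reached past the fingers. The share of 50-base stretches of a member's transcripts that also occurred in a transcript of another gene, on either strand, had a median of 68% on chromosome 4 and 15.4% on chromosome 13. More than 50% was shared in 11 members of chromosome 4 and in 4 of chromosome 13. Read pairs that match several places equally well were not counted, so the level of such a member rests on its remaining bases. The share was 29.1% in Zfp990, 25.9% in Zfp998, 68.4% in Zfp534, 54.5% in Zfp984, 82.2% in Zfp991 and 86.8% in Zfp993.

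Zfp990 (ENSMUSG00000078503, chr4:145510759-145539188, plus strand) differed most between libraries of the same genotype. In WT it had 29, 24, 21 and 22 counts in libraries 1 to 4, and 2542 and 2394 counts in libraries 5 and 6. In KI it had 3138, 3386 and 2848 counts in libraries 3, 5 and 6, 10 and 19 in libraries 1 and 2, and 13 in the library labelled KI 4. The 6 KO libraries held 8 to 38 counts. The high libraries, between 110 and 158 CPM, thus fell in WT and in KI, the low ones, at most 1.69 CPM, fell in every genotype, and no library lay between. On the log2 scale the standard deviation of Zfp990 was 3.4 within WT, where it ranked 2 of 21058 genes tested, and 4.23 within KI, where it ranked 1. Within KO it was 0.72. The median over genes tested was 0.29 in WT, 0.31 in KO and 0.36 in KI, and the median over the 39 members tested was 0.34, 0.30 and 0.34.

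**Figure D1:**
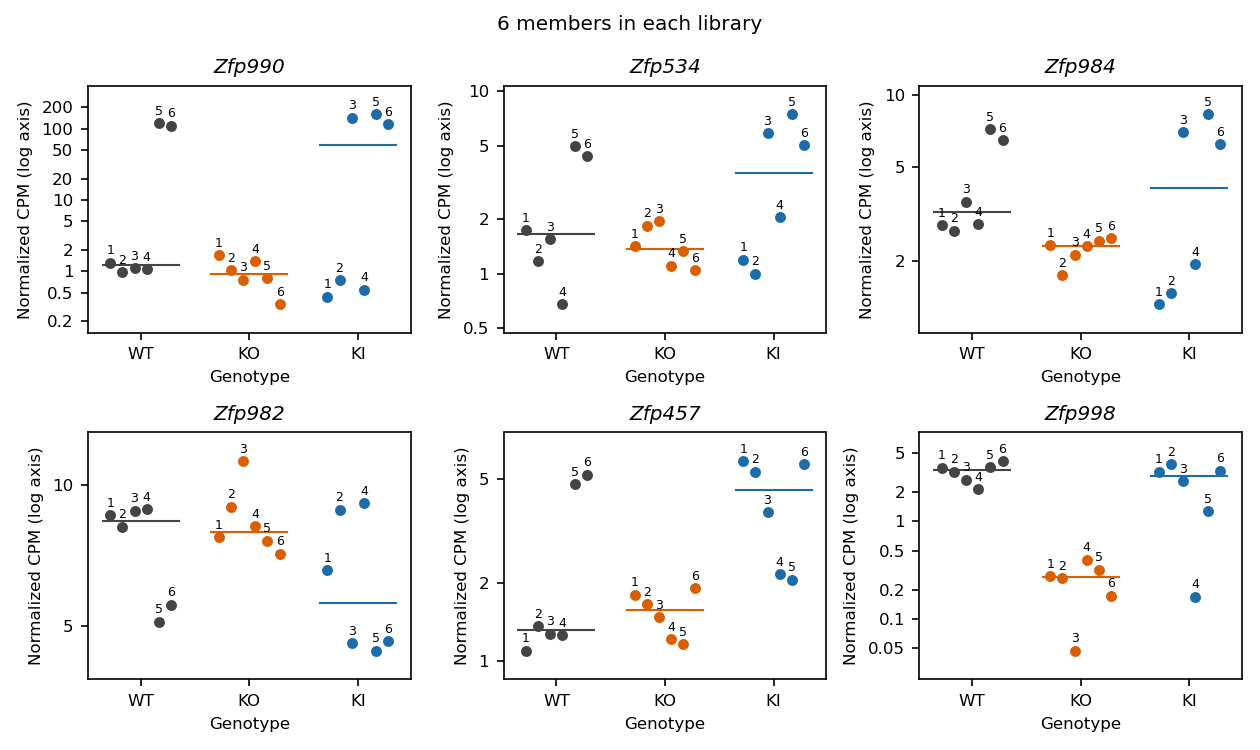
Normalized CPM (log axis, its range differing between panels) of 6 members in each library, grouped by genotype, with the library number beside each point and a line at the median of 6 libraries. Zfp990, Zfp534 and Zfp984 are high and Zfp982 is low in WT 5 and 6 and KI 3, 5 and 6, Zfp457 divides the libraries differently, and Zfp998 is low in KO and in the library labelled KI 4.

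Zfp984 and Zfp534 had the highest likeness to Zfp990 of all 21057 other genes tested, with Pearson r of log2 CPM over 18 libraries of 0.93 and 0.92. They were followed by Grin2b (0.92), a subunit of the NMDA receptor on chromosome 6, and by Gm21411 (0.91, chromosome 4) and Gm44156 (0.91, chromosome 6). These values are descriptions, since the libraries share genotypes. Zfp534 had 106 and 96 counts in WT 5 and 6 against 14 to 38 in the other WT libraries, and 124 to 160 in KI 3, 5 and 6 against 25 to 48 in the other KI libraries. Zfp984 had 152 and 140 counts in WT 5 and 6 against 59 to 67, and 152 to 177 in KI 3, 5 and 6 against 30 to 46. In the KO libraries Zfp534 had 24 to 42 counts and Zfp984 40 to 63, inside or close to the range of the low libraries. The swing of both genes was far smaller than that of Zfp990.

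Other members of the chromosome 4 cluster went the opposite way. Zfp982 had r = -0.88 with Zfp990, rank 2 from the bottom of all genes tested, with 108 and 121 counts in WT 5 and 6 against 166 to 203, and 95 to 114 in KI 3, 5 and 6 against 149 to 222. Zfp993 (r = -0.80) had 155 and 125 counts in WT 5 and 6 against 171 to 205, and 161 to 189 in KI 3, 5 and 6 against 269 to 294. Zfp979 had r = -0.73. The remaining tested members of chromosome 4 had r between -0.13 and 0.58. Zfp989, which did not pass the filter on low counts and was picked out after its values were seen, had 18 to 36 counts in WT 5 and 6 and KI 3, 5 and 6, and at most 6 in any other library.

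**Figure D2:**
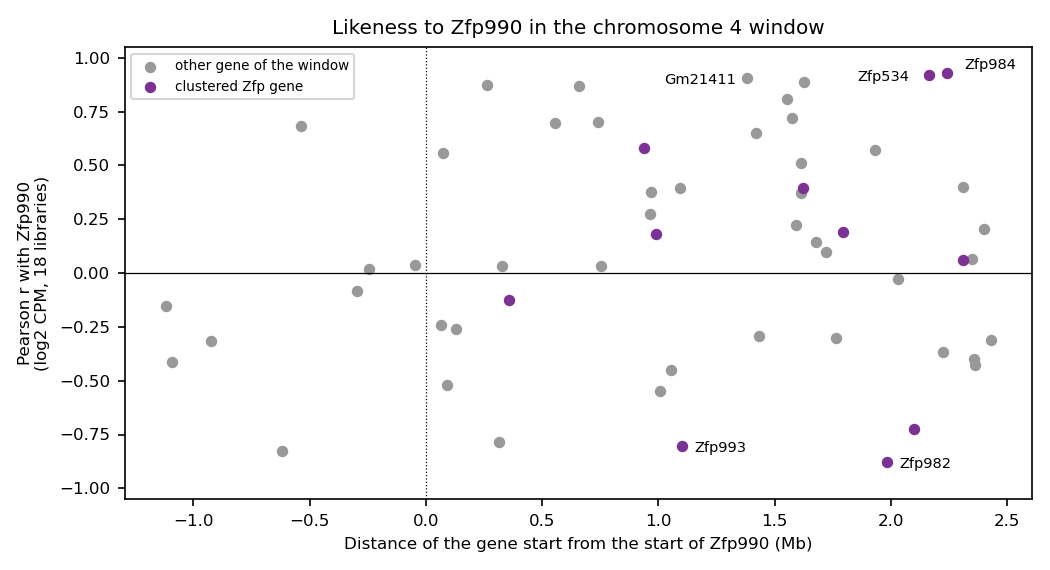
Pearson r with Zfp990 (log2 CPM, 18 libraries) of each gene tested that starts in the chromosome 4 window, against the distance of its start from that of Zfp990 in Mb. Clustered Zfp genes are in colour, and the coloured points above 0.8 and below -0.8 lie on 1 side of Zfp990, since it is the first member of the cluster.

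Of the 57 genes tested in the chromosome 4 window, Zfp990 included, 10 others had r above 0.8 or below -0.8 with Zfp990, and over all chromosomes 129 genes did. In the same 5 libraries marker genes of round spermatids and of other cells were not level. The summed CPM of 6 round spermatid markers was 498 to 649 in KI 3, 5 and 6 and 681 to 709 in the other KI libraries. In WT it was 724 and 630 in libraries 5 and 6 and 716 to 1016 in the others, which overlapped. The summed CPM of 5 Leydig cell markers was 13.2 to 17.5 in KI 3, 5 and 6 and 45.9 to 65.7 in the other KI libraries, but 10.3 and 19.7 in WT 5 and 6 and 9.68 to 11.2 in the other WT libraries. The sum of 6 spermatogonia markers was 20.4 to 28.2 in KI 3, 5 and 6 and 40.1 to 71.2 in the others, and in WT 28.5 and 34.9 in libraries 5 and 6 and 30.8 to 39.1 in the others. Summed spermatocyte markers were 821 and 895 CPM in WT 5 and 6 and 674 to 757 in the other WT libraries. Sertoli cell markers were 5.83 and 4.92 CPM in WT 5 and 6 and 8.001 to 9.64 in the others. Endothelial markers were 11.04 and 11.36 CPM in WT 5 and 6 and 13.99 to 16.8 in the others. In KI the sums of these further lists overlapped between libraries 3, 5 and 6 and the others. The macrophage sum overlapped in WT and in KI. The part of all these markers in the levels of Zfp990 was not tested. Libraries of the same genotype also came in close pairs over the 39 members tested, WT 1 with 2, 3 with 4 and 5 with 6, KO 4 with 5, KI 1 with 2, and KI 3 with 5 and 6, the nearest library being at a median absolute log2 difference of 0.13 to 0.21. KO 6 with KO 2 (0.207) lay in that range too. So did libraries of different genotypes, WT 6 with KI 3 (0.198) and WT 5 with KI 6 (0.205). In a fit below with close pairs summed, KI 3 was added to KI 5, and KI 6, KO 2 and KO 6 stayed separate. Of the pairs within a genotype, the others listed were each summed.

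Summed over the 18 chromosome 4 members, the level was 130 to 283 CPM in WT, 121 to 157 in KO and 123 to 322 in KI. Without Zfp990 the sums were 129 to 162 CPM in WT, 120 to 157 in KO and 123 to 164 in KI, and overlapped throughout. Zfp990 alone made up as much as 42.6% of the sum in a WT library and 49.2% in a KI library, against at most 1.30% in KO. The chromosome 13 members summed to 246 to 303 CPM in WT, 274 to 308 in KO and 249 to 320 in KI.

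**Figure D3:**
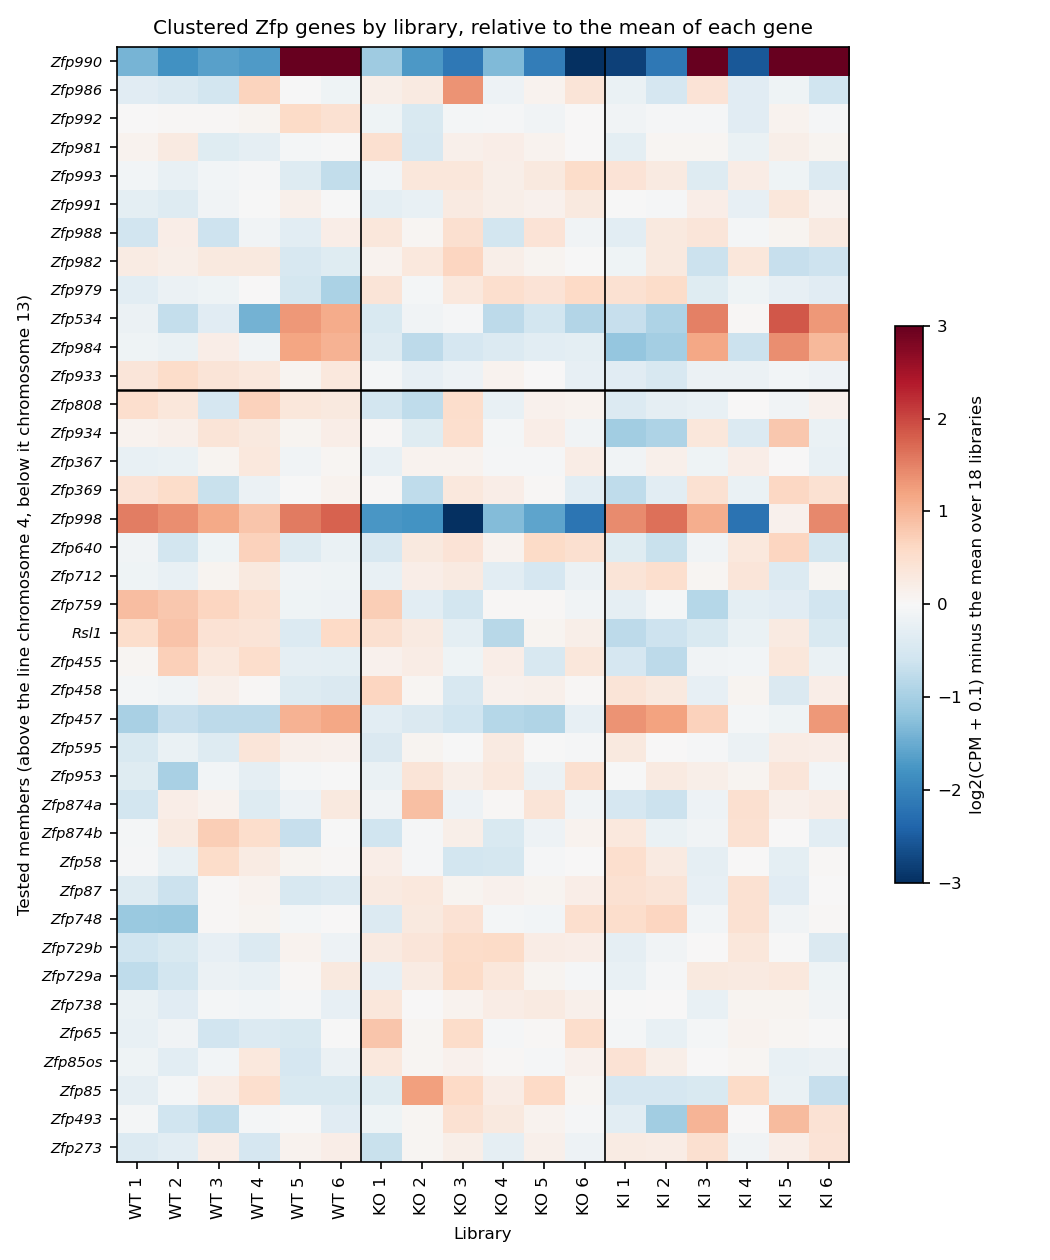
Level of the 39 members tested in each library, as log2(CPM + 0.1) minus the mean of the gene over 18 libraries (colour, limited to -3 and 3), with members in order along chromosome 4 (above the horizontal line) and chromosome 13 (below it). Zfp990 and Zfp998 show the strongest colours, Zfp990 within WT and KI and Zfp998 between KO and the other genotypes.

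The comparison of KO with WT asked how the members' levels differ in RS without GRTH. Of the 50 members, 39 passed the filter on low counts, 12 on chromosome 4 and 27 on chromosome 13. By edgeR's quasi-likelihood test over all genes with Benjamini-Hochberg adjustment (adjusted p under 0.1), 7 members were higher and 4 lower in KO, beside 16.4% of all genes tested called higher and 13.5% called lower. The shares of the members were 17.9% and 10.3%. With close library pairs summed and the library labelled KI 4 left out, 45 members were tested, of which 3 were higher and 4 lower, beside 7.94% and 7.62% of all genes tested in that fit. The 3 were Zfp979, Zfp729b and Zfp65, and the 4 were Zfp998, Zfp990, Zfp933 and Zfp985. In the fit over all 18 libraries, the median difference of the 39 members was 0.14 on the log2 scale and that of all genes tested 0.03. By more than 1 log2 unit (edgeR's glmTreat) only Zfp998 was called, 1 of 39, beside 1.73% of all genes.

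Zfp998 (ENSMUSG00000074832, chr13:66418114-66441118, minus strand, also known as 2410141K09Rik) encodes 14 fingers. It had 44 to 90 counts in WT, 1 to 11 in KO, 27 to 96 in 5 of the KI libraries, and 4 in the library labelled KI 4. In CPM the lowest, median and highest values were 2.13, 3.37 and 4.14 in WT and 0.0475, 0.267 and 0.405 in KO, so that the groups did not overlap. The level fell by 3.64 on the log2 scale in KO, with a standard error (SE) of 0.49 (adjusted p = 8.8e-06, edgeR's quasi-likelihood test; adjusted p = 0.0013 against 1 log2 unit, edgeR's glmTreat). The call past 1 log2 unit held when any of the 18 libraries was left out. The 5 genes most like it were Gm33242 (r = 0.96), Gm6853 (0.92) and Tbc1d9 (0.89) on chromosome 8 and AC061963.1 (0.91) and C2cd2l (0.89) on chromosome 9, the chromosome that carries Ddx25. Over all chromosomes 61 genes had r above 0.8 or below -0.8 with Zfp998. Of these 14 lie on chromosome 9, 9 on chromosome 8 and 6 on chromosome 13. As for Zfp990, these values are descriptions, since the libraries share genotypes. Of the members, Zfp729b ran most opposite to it (r = -0.83).

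Zfp990 was also called lower in KO, by 5.28 on the log2 scale (SE 1.53, adjusted p = 0.015, edgeR's quasi-likelihood test), and not past 1 log2 unit (adjusted p = 0.23, edgeR's glmTreat), while DESeq2 called it past 1 log2 unit (adjusted p = 0.091). With the replicate number as a block the call was lost and the difference was -2.71 (adjusted p = 0.23, edgeR). The groups overlapped: 4 of the WT libraries had 0.964 to 1.33 CPM and the KO libraries 0.346 to 1.69 CPM, with WT 5 and 6 at 120 and 110 CPM. Leaving out WT 5 gave -4.51 (adjusted p = 0.038) and leaving out WT 6 gave -4.62 (adjusted p = 0.032), both by edgeR's quasi-likelihood test. Zfp984 and Zfp534, high in the same WT libraries, had -0.92 (SE 0.40, adjusted p = 0.10) and -0.75 (SE 0.49, adjusted p = 0.30) in KO by edgeR's quasi-likelihood test. Zfp984 missed the threshold and passed it when any of 8 libraries was left out (WT 1, 2 and 4, KI 1, 2, 3 and 5 and the library labelled KI 4), at an adjusted p (edgeR) of 0.0677 to 0.0921.

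Zfp992 and Zfp933, both on chromosome 4, were the other members called lower. Zfp933 had 10.9, 13.1 and 15.2 CPM (lowest, median, highest) in WT and 8.64, 9.64 and 11.1 CPM in KO, a difference of -0.43 (SE 0.11, adjusted p = 0.0073, edgeR). Zfp992 had 32.4, 33.4 and 47.2 CPM in WT and 23.4, 30.2 and 32.2 CPM in KO, which did not overlap, and the difference was -0.34 (SE 0.12, adjusted p = 0.041, edgeR). The call for Zfp992 was lost without WT 5, WT 6 or KO 2, where the adjusted p (edgeR) was 0.107 to 0.123, and with close library pairs summed and the library labelled KI 4 left out (adjusted p = 0.20, edgeR).

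The 7 members called higher in KO rose by 0.34 to 0.70 on the log2 scale. On chromosome 4, Zfp979 rose from a median of 7.37 CPM in WT (4.51 to 8.92) to 11.6 CPM in KO (8.43 to 13.4), by 0.70 (SE 0.19, adjusted p = 0.0082, edgeR). Zfp993, whose transcripts share most of their sequence with other genes, rose by 0.54 (SE 0.16, adjusted p = 0.018, edgeR). The other 5 lie on chromosome 13. Zfp729b, which encodes the longest row of fingers of the members, had 1.19, 1.45 and 1.99 CPM in WT and 2.12, 2.32 and 2.80 CPM in KO, did not overlap between these genotypes, and rose by 0.68 (SE 0.18, adjusted p = 0.0070, edgeR). Zfp65 rose by 0.66 (SE 0.16, adjusted p = 0.0053, edgeR), from 2.76, 3.33 and 4.14 CPM to 4.05, 5.19 and 7.47 CPM. Zfp953 and Zfp87 rose by 0.46 each (SEs 0.17 and 0.15, adjusted p = 0.058 and 0.034, edgeR). The call for Zfp953 was lost without WT 1, WT 2, KO 2, KO 4 or KO 6, where the adjusted p (edgeR) was 0.106 to 0.141. Zfp738, which the rule for named genes did not reach and which was added after its values were seen, had 11.8 to 14.5 CPM in WT and 15.1 to 18.8 CPM in KO, with no overlap. Zfp87, Zfp993 and Zfp953 were not called with close library pairs summed and the library labelled KI 4 left out (adjusted p = 0.13, 0.12 and 0.19, edgeR). Among the 39 members, 5 did not overlap between KO and WT, beside 13.1% of all genes tested: Zfp998, Zfp992 and Zfp984 were lower in KO, and Zfp729b and Zfp738 higher.

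**Figure D4:**
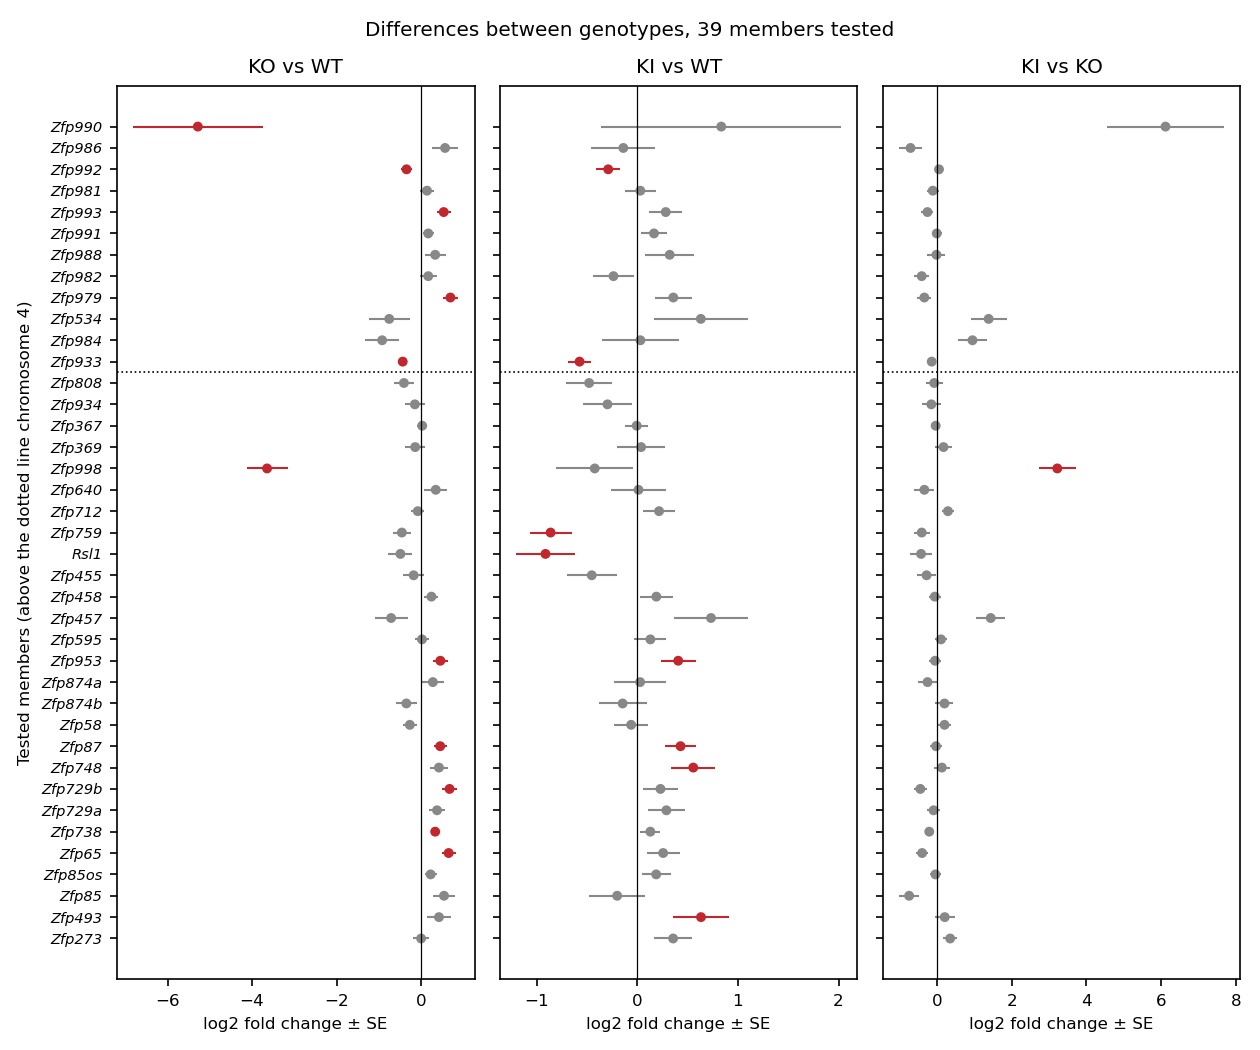
Log2 fold change with SE of the 39 members tested in each comparison (edgeR's quasi-likelihood fit, horizontal scales differing between panels), in order along the chromosomes. Red marks the members past an adjusted p of 0.1, which are 11 in KO against WT, 8 in KI against WT, and Zfp998 in KI against KO.

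The comparison of KI with WT asked how they differ in RS that lack the phosphorylated form, and it shares its WT libraries with the previous one. In KI, 4 members were called higher and 4 lower by edgeR's quasi-likelihood test, beside 16.1% of all genes tested called higher and 15.4% lower, so that both shares of the members were 10.3%. With close library pairs summed and the library labelled KI 4 left out, 0 of 45 were higher and 2 lower (Zfp933 and Zfp759), beside 5.32% and 6.87% of all genes tested in that fit. Single libraries moved these counts, to 0 higher without WT 2 and to 6 lower without KI 5. In those fits 2946 of 21301 genes tested were higher without WT 2, and 2978 of 21245 were lower without KI 5. The median difference of the members was 0.13 on the log2 scale and that of all genes tested 0.05. None of the 39 was called past 1 log2 unit by edgeR's glmTreat or by DESeq2, beside 1.95% of all genes. An unadjusted p under 0.05 was reached by 0 of the 39 in edgeR's glmTreat and by 9 in edgeR's test for any change. In the test for any change 23 of 128 other genes inside the windows and 117 of 301 Zfp genes outside them reached it. How many of all genes tested did so was not counted, here or below.

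Rsl1 (ENSMUSG00000058900, chr13:67173182-67184044, plus strand), which in liver restrains genes that differ between the sexes, was scarce, with 9 to 29 counts in WT, 8 to 17 in KO and 7 to 16 in KI. Its CPM was 0.426, 0.882 and 1.16 in WT and 0.309, 0.409 and 0.748 in KI, groups that overlapped, and it was lower in KI by 0.91 (SE 0.29, adjusted p = 0.025, edgeR). This call was lost with close library pairs summed and the library labelled KI 4 left out (-0.92, adjusted p = 0.14, edgeR). In KO the difference was -0.49 (SE 0.28, adjusted p = 0.24, edgeR), short of the threshold. Zfp759, among the most abundant members, had 24.1, 39.3 and 50.7 CPM in WT and 14.8, 21.5 and 25.8 CPM in KI, a difference of -0.86 (SE 0.21, adjusted p = 0.0039, edgeR). Within WT it divided, with 36.6 to 50.7 CPM in libraries 1 to 4 and 24.4 and 24.1 CPM in libraries 5 and 6. The KO libraries had 18.3 to 27.5 CPM apart from KO 1 at 44.8 CPM, and the difference of -0.45 (SE 0.21) in KO was not called (adjusted p = 0.12, edgeR). It was called without WT 5, WT 6 or KO 1, at an adjusted p (edgeR) of 0.0169 to 0.0662.

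Zfp933 was lower in KI as well, by 0.57 (SE 0.11, adjusted p = 6.4e-04, edgeR), with 7.34, 9.16 and 9.77 CPM against 10.9 CPM as the lowest WT library, and it was the 1 member of 39 that did not overlap between KI and WT, beside 13.9% of all genes tested. Zfp992 was lower by 0.29 (SE 0.12, adjusted p = 0.082, edgeR), and this call was lost without any of 8 libraries (WT 3, 5 and 6, KI 1, 2, 3 and 6 and the library labelled KI 4), at an adjusted p (edgeR) of 0.103 to 0.279. Zfp998, which fell in KO, had a difference of -0.42 (SE 0.38, adjusted p = 0.47, edgeR) in KI, and without the library labelled KI 4 it was -0.18 (SE 0.26, adjusted p = 0.68, edgeR).

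Of the members higher in KI, Zfp87 rose by 0.43 (SE 0.15, adjusted p = 0.043, edgeR), Zfp748 by 0.56 (SE 0.22, adjusted p = 0.069, edgeR), Zfp953 by 0.41 (SE 0.17, adjusted p = 0.091, edgeR) and Zfp493 by 0.63 (SE 0.28, adjusted p = 0.099, edgeR). All 4 lie on chromosome 13. Each of these calls depended on single libraries. Zfp87 was not called without WT 2, KI 1 or the library labelled KI 4 (adjusted p 0.102 to 0.108, edgeR), and Zfp748 without WT 1, WT 2, KI 1, KI 2 or the library labelled KI 4 (0.118 to 0.159). Zfp953 was not called without WT 1, 2 or 4, KO 4, KI 2, 3 or 5 or the library labelled KI 4 (0.104 to 0.214). Zfp493 was not called in 13 of 18 such fits (0.103 to 0.267), those without WT 1, 2, 3, 4 or 6, KO 1, 2, 4, 5 or 6, or KI 3, 5 or 6. Zfp748 had 16.9 and 16.5 CPM in WT 1 and 2 and 35.5 to 38.7 CPM in the other WT libraries, beside 34.4 to 57.9 CPM in KI. Zfp493 had 4.61, 4.39 and 3.06 CPM in KI 3, 5 and 6 and 1.04 to 2.24 CPM in the other KI libraries.

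KI was compared with KO to ask how the members' levels differ between RS without the protein and RS without its phosphorylated form. The KI mice also carry a human gene, the strain is not given, and the library labelled KI 4 has Ddx25 counts like KO. The comparison thus cannot set the loss of the protein apart from these. Zfp998 was the 1 member of 39 called, higher in KI by 3.22 (SE 0.49, adjusted p = 0.0070, edgeR's quasi-likelihood test), where 0.0997% of all genes tested were called in either direction. It had 1 to 11 counts in KO, and with only the KI and KO libraries it did not pass the filter and was not tested. The groups overlapped through the library labelled KI 4, which at 0.169 CPM lay inside the KO range, and the other KI libraries had 1.26 to 3.83 CPM. With every library the change was not past 1 log2 unit (adjusted p = 0.56, edgeR's glmTreat), beside 0.00475% of all genes. DESeq2 called 1 member, Zfp998, past 1 log2 unit, and 2 members had an unadjusted p under 0.05 in edgeR's glmTreat. So did 4 of 128 other genes inside the windows and 0 of 301 Zfp genes outside them. Without the library labelled KI 4 the difference in Zfp998 was 3.47 (SE 0.33) and passed that test (adjusted p = 6.3e-04, edgeR's glmTreat). No member was called lower by edgeR's quasi-likelihood test or DESeq2, and 5 had an unadjusted p under 0.05 in that direction. By the same quasi-likelihood test 8 of 128 other genes inside the windows and 5 of 301 Zfp genes outside them did.

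Zfp990 had a difference of 6.12 (SE 1.57) between KI and KO that was not called (adjusted p = 0.29, edgeR), and without the library labelled KI 4 it was 6.38 and called (adjusted p = 0.081, edgeR). Zfp457, added after its values were seen, was the 1 member of 39 that did not overlap between KI and KO, beside 0.223% of all genes tested, with 1.16, 1.57 and 1.91 CPM in KO and 2.06, 4.55 and 5.87 CPM in KI. Its difference of 1.44 (SE 0.38) was not called by edgeR (adjusted p = 0.35) and was called by DESeq2. Zfp457 also divided WT, with 4.78 and 5.20 CPM in libraries 5 and 6 and 1.10 to 1.37 CPM in libraries 1 to 4, but in KI it was high in libraries 1, 2, 3 and 6, which is not the division shown by Zfp990.

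Levels in WT were compared between genes as CPM per kb of exon. The length took in all exon bases, also those shared with other genes, where pairs with several equal matches were not counted. The order is thus of counted levels, among members as unlike in shared sequence as Zfp759 (0.48%) and Zfp991 (82.2%). The levels spanned 0 to 18.1 with a median of 0.751, 11 members were above 10 CPM and 14 below 1 CPM. Zfp991 was the highest of the 50, at 18.1 ± 2.46 CPM per kb (SD, n = 6). Zfp990 came next by its mean, 11.2 ± 16.9 CPM per kb, but its libraries ran from 0.276 to 34.4 CPM per kb and its place rests on WT 5 and 6. Zfp759 (9.92 ± 2.98), Zfp992 (8.17 ± 1.46), Zfp367 (8.01 ± 1.17), Zfp87 (7.37 ± 1.59) and Zfp993 (6.39 ± 1.10) followed, and neighbours in this order overlapped in their libraries, whereas the lowest library of Zfp991 (14.9) was above the highest of Zfp759 (13.4). Zfp458 (5.47 ± 0.875), Zfp748 (5.37 ± 1.88) and Zfp982 (5.06 ± 1.16) completed the 10 highest. Of these, Zfp367, Zfp458, Zfp991 and Zfp982 were not called in any comparison, and Zfp367 had differences of 0.03 in KO and -0.005 in KI, each with a SE of 0.11 on the log2 scale.

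**Figure D5:**
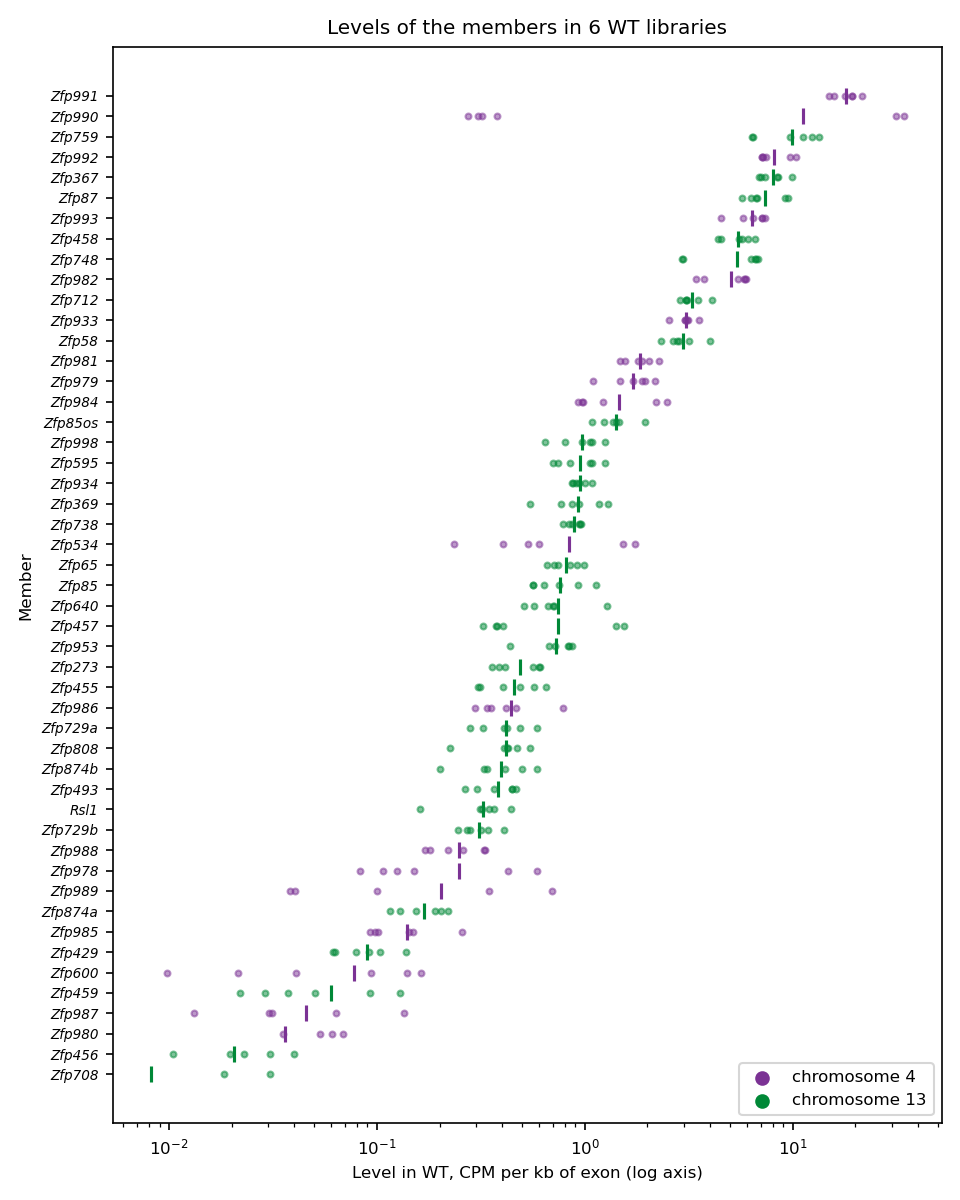
Level in WT of 49 members in CPM per kb of exon (log axis), with a point for each of 6 libraries and a bar at their mean, ordered by the mean and coloured by chromosome. Libraries at 0 are not drawn, nor is Zfp935, which was at 0 in every library. The points of Zfp990 fall far to either side of its mean.

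The 11 members that did not pass the filter were Zfp980, Zfp987, Zfp600, Zfp989, Zfp978 and Zfp985 on chromosome 4 and Zfp935, Zfp708, Zfp456, Zfp429 and Zfp459 on chromosome 13, with at most 36 counts in any library. Zfp935 had 0 counts in each library and shared 100% of its 50-base stretches with other genes, and Zfp708, a KRAB zinc finger protein known to bind a retroelement, had at most 3 counts and shared 94.9%. For such genes a count of 0 does not show that no transcript was made. Rsl1 shared 25.2%.

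Other genes were examined for context. Of 369 Zfp genes outside both windows, 301 were tested. In KO 75 (24.9%) were higher and 16 (5.32%) lower (median difference 0.17), beside 16.4% and 13.5% of all genes tested. In KI 82 (27.2%) were higher and 18 (5.98%) lower (median 0.16), beside 16.1% and 15.4% of all genes tested. Between KI and KO 0 differed by edgeR, beside 0.0997% of all genes tested, and 10 had an unadjusted p under 0.05. Of 402 other genes inside the windows, 128 were tested. In KO 15 (11.7%) were higher and 18 (14.1%) lower (median -0.09), and in KI 9 (7.03%) were higher and 12 (9.38%) lower, beside the same shares of all genes. Past 1 log2 unit (edgeR's glmTreat), 3 of these (2.34%) were lower in KO, beside 1.73% of all genes in either direction. Gm26715 (chr13:66349396-66365772, plus strand), on the same chromosome as Zfp998, had 7 to 53 counts in WT, 9 to 19 in 5 of the KI libraries, and at most 1 in KO and in the library labelled KI 4. Gm46426 had 25 to 31 counts in WT 1 to 4, 1 and 0 in WT 5 and 6, and 0 in KO. Habp4, an RNA-binding protein gene near Zfp367, fell by 1.70 in KO (SE 0.21, adjusted p = 0.071, edgeR's glmTreat) and was also past 1 log2 unit in KI, with a difference of -1.83 (SE 0.21, adjusted p = 0.018, edgeR's glmTreat).

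The 25 genes of the silencing machinery that KRAB zinc finger proteins recruit were above 3 counts in every library. Trim28, the central cofactor, differed by 0.21 in KO (SE 0.15, adjusted p = 0.34, edgeR) and by 0.18 in KI (SE 0.15, adjusted p = 0.44, edgeR). Of the 25, 6 (24%) were higher and 1 (4%) lower in KO, beside 16.4% and 13.5% of all genes tested. Dnmt3a, a de novo DNA methyltransferase, was up by 0.73 and Dnmt3l, its germ cell partner, down by 0.74 (adjusted p = 0.0019 and 0.0072, edgeR). In KI 8 (32%) were higher and 2 (8%) lower, beside 16.1% and 15.4% of all genes tested. Among these, Setdb1, the histone methyltransferase that Trim28 brings, rose by 0.38 (SE 0.10, adjusted p = 0.0077, edgeR), and Morc3 rose by 0.43 (SE 0.11, adjusted p = 0.0047, edgeR). None was called between KI and KO by edgeR, where 1 had an unadjusted p under 0.05. Of 10 KRAB zinc finger genes chosen for known roles in silencing, 9 outside the windows and Zfp429 within them, 9 were tested. In KO 3 of these (33.3%) were higher (Zfp57, Zfp568 and Zfp92) and 0 lower, beside 16.4% and 13.5% of all genes tested. In KI 1 (11.1%) was higher and 0 lower, beside 16.1% and 15.4%. Zfp57, which guards imprinted regions, rose by 0.60 in KO and by 0.49 in KI (adjusted p = 0.0061 and 0.023, edgeR).

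The genotypes also differed in markers of round spermatids, of other cells and of later stages. The 6 round spermatid markers summed to 630 to 1016 CPM in WT, 484 to 1019 in KO and 498 to 709 in KI. By edgeR's quasi-likelihood test 2 of the 6 (33.3%) were lower in KI, beside 15.4% of all genes tested, and 0 higher. All 6 log2 differences of KI from WT were below 0, with a median of -0.39. In KO 1 (16.7%) was lower, beside 13.5%, and 0 higher, with 4 of the 6 differences below 0 and a median of -0.06. All 5 transition protein and protamine genes were lower past 1 log2 unit in KO and in KI (edgeR's glmTreat), and all 5 Leydig cell markers were higher in both by edgeR's quasi-likelihood test. The 5 transition protein and protamine genes summed to 9898 to 13744 CPM in WT, 1203 to 2515 in KO and 1372 to 2343 in KI, and the 5 Leydig cell markers to 9.68 to 19.7, 29.6 to 51.0 and 13.2 to 65.7 CPM. The 6 spermatogonia markers summed to 28.5 to 39.1, 32.5 to 68.9 and 20.4 to 71.2 CPM, and the 7 spermatocyte markers to 674 to 895, 850 to 1068 and 784 to 1016 CPM. Sertoli cell markers (6 genes) summed to 4.92 to 9.64, 3.77 to 7.99 and 4.11 to 8.04 CPM, macrophage markers (5 genes) to 3.75 to 5.97, 4.96 to 8.64 and 6.84 to 9.65 CPM, and endothelial markers (4 genes) to 11.04 to 16.8, 14.3 to 27.8 and 18.2 to 26.0 CPM. Every marker of these lists was above 3 counts in at least 1 library. The part of these differences in the changes of the members was not tested.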

How the data were processed

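RNA was made into libraries with a strand-specific kit for low input, without selection of polyadenylated RNA. The authors used cutadapt 3.4 for trimming and STAR 2.7.8a for alignment to GRCm38, and counted read pairs per gene of GENCODE M18 with featureCounts (Subread 2.0.1), with strand, leaving pairs with several matches uncounted and duplicates in place. They deposited raw counts for 18 libraries. Symbols were taken from GENCODE M21, which held 54079 of the 54232 identifiers.

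Counts were fitted over all 18 libraries by genotype with edgeR 4.0.16 (R 4.3.3, TMM scaling, filterByExpr, quasi-likelihood test), which left 21058 genes. The test against 1 log2 unit was glmTreat, and p-values were adjusted over all genes (Benjamini-Hochberg, threshold 0.1). Standard errors were derived from the F statistic. CPM used TMM-scaled totals. The fit was tested on simulated data. Alternatives included DESeq2 1.42.0, other filters, a replicate block and leaving out each library.

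The members and lists were chosen with earlier results of these data known. Members named were Zfp990, Zfp998 and Rsl1, those past 1 log2 unit, up to 10 called members per comparison by size, the 5 highest per cluster in WT, and those at 3 or fewer counts throughout 1 genotype and above throughout another. Others are said to be added.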

Additional observations from a re-analysis of the deposited data

Results flagged for a closer look

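Zfp998 differed between KI and KO, by 3.22 on the log2 scale (SE 0.49, adjusted p = 0.0070, edgeR's quasi-likelihood test), a test of the difference between both genotypes' changes from WT, since both are set against the same WT libraries. It had 1 to 11 counts in KO and did not pass the filter with only the KI and KO libraries. In single groups of 6 libraries, 1 library stood apart from the others by Dixon's criterion in 2 of 60 groups examined. Zfp759 had 44.8 CPM in KO 1, the highest of KO, and Zfp992 had 23.4 CPM in KO 2, the lowest of KO. Chance alone gives such a gap in about 1 of 20 groups.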

How the results depend on the processing

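For the log2 fold changes of 20 named members, 1457 of 1550 values under alternatives kept their direction and their side of the threshold, 71 lost the call, 22 gained it and 0 reversed. The counts of members moved more, and the cause was not tested except where stated. Past 1 log2 unit in KO against WT, the count of 1 became 2 with DESeq2, 2 without a filter on low counts, 2 with only the libraries compared, and 0 with at least 10 counts in every library, which removes Zfp998. It was 1 to 1 when each library was left out in turn. Over all genes tested, 126 were higher and 239 lower past 1 log2 unit in the main fit. DESeq2 gave 114 and 255, no filter 121 and 261, only the libraries compared 118 and 233, and at least 10 counts 33 and 181. Members lower in KO (4) became 7 with DESeq2, 7 without a filter and 2 with at least 10 counts, and 3 to 6 when a library was left out, the lowest without KO 2 and the highest without WT 1. Of all genes tested, 2836 of 21058 were lower in KO in the main fit. The counts were 3138 of 43980 with DESeq2, 2859 of 43982 without a filter and 2456 of 16543 with at least 10 counts. Members higher in KO (7) became 3 with close pairs of libraries summed and the library labelled KI 4 left out, and 6 to 10 when a library was left out. The share of all genes tested called higher was 16.4% in the main fit and 7.94% with close pairs summed. In KI against WT, members higher (4) became 1 at an adjusted p of 0.05, 2 without a filter and 0 with close pairs summed, and 0 to 5 when a library was left out. Of all genes tested, 3397 of 21058 were higher in KI in the main fit. The counts were 2562 of 21058 at 0.05, 3230 of 43982 without a filter and 1275 of 23982 with close pairs summed. Members lower (4) became 2 with close pairs summed and 3 to 6 when a library was left out, and the count past 1 log2 unit was 0 to 0. Of all genes tested, 3247 of 21058 were lower in KI in the main fit and 1647 of 23982 with close pairs summed. In KI against KO, the count past 1 log2 unit (0) became 1 with DESeq2, 1 without a filter, 1 with close pairs summed, and 0 to 1 when a library was left out, 1 being without the library labelled KI 4. Of all genes tested, 1 was higher past 1 log2 unit in the main fit, 5 with DESeq2 and 10 without a filter, and 0 were lower. With close pairs summed 5 were higher and 3 lower, and without the library labelled KI 4 9 were higher and 6 lower. Members higher (1) became 3 with DESeq2, 3 without a filter, 0 with at least 10 counts and 0 with only the libraries compared, since Zfp998 did not pass the filter in these fits and was not tested, and 1 to 2 when a library was left out. Of all genes tested, 16 of 21058 were higher in the main fit, 70 of 43980 with DESeq2 and 82 of 43982 without a filter. The counts were 3 of 16543 with at least 10 counts and 11 of 20339 with only the libraries compared. Members lower stayed at 0 to 0. An interval null in glmTreat, added after the data were seen, gave the same counts past 1 log2 unit.

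Libraries of the genotypes share only a replicate number: deviations of same-numbered libraries correlated over 0.1 in 7 of 18 pairs (range -0.44 to 0.48). With the replicate number as a block, 7 members were higher and 5 lower in KO, 3 higher and 4 lower in KI, and 1 higher in KI against KO. Of all 21058 genes tested in that fit, 3360 were higher and 2905 lower in KO, and 3197 higher and 3324 lower in KI. Between KI and KO 13 were higher and 10 lower. The call for Zfp990 in KO was lost in that fit (-2.71, adjusted p = 0.23, edgeR). Depth limited the 11 members not tested, and sequence shared with other genes limited many of chromosome 4.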
